A study of Mus with 2 samples.

Results

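*Dynlt1a*, *Ankmy1*, *Leng9*, *Pam* and *Khsrp* are 5 of the 32285 genes counted in a pair of tumor sections profiled with Visium, an assay that captures polyadenylated RNA on a grid of barcoded spots and counts each tagged molecule once by its unique molecular identifier (UMI). They were chosen by how their UMIs varied from spot to spot in these same sections, and had been named patchy genes, so their levels, their spread over the array and their correlation with each other are given as descriptions with no test. The tumors were CT26, a mouse colon carcinoma line syngeneic with BALB/c mice, grown from 200000 cells injected under the skin of mice aged 6 to 8 weeks and collected on day 15. The rIL7 mouse received 10 µg of recombinant mouse IL-7 into the peritoneum on day 11 and on day 13, and the control mouse, labelled PBS, received none. Each group was 1 mouse, 1 section of 10 µm and 1 library, so no comparison between the groups has a replicate check and no p-value is given. All intervals are 95% intervals that cover counting error only.

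The 5 genes have no known shared function. *Dynlt1a* encodes a Tctex-type light chain of cytoplasmic dynein, the motor that carries cargo toward the minus end of microtubules. *Ankmy1* encodes a protein with ankyrin repeats and a MYND zinc finger, and *Leng9* is named for its place in the leukocyte receptor cluster, a region dense in immune receptor genes. *Pam* encodes peptidylglycine alpha-amidating monooxygenase, which amidates the C terminus of secreted peptides. *Khsrp* encodes a KH domain protein that binds AU-rich elements, takes part in splicing and hastens the decay of the messenger RNAs it binds.

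The control section kept 2219 spots with 22951678 UMIs and a median of 9623 UMIs per spot, and the rIL7 section kept 1950 spots with 25729233 UMIs and a median of 12921.5. Visium spots carry fixed barcodes of 16 bases, and 1701 barcodes were kept in both sections. All 1701 lay at the same array row and column in both, so a barcode and a place on the array cannot be told apart. The barcodes held 4 to 12 A or T bases with a median of 8, and 492 control and 439 rIL7 spots had at least 10 (A+T-rich), against 853 and 730 with at most 7 (A+T-poor). The A+T-rich spots made up 22.2% of the control and 22.5% of the rIL7 section. Median depth was 9768 UMIs in A+T-rich and 9450 in A+T-poor spots of the control section, and 13276 and 12797 in rIL7.

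The barcodes are shown because the level of all 5 genes followed their base composition. Among the shared barcodes, the following 5 had the highest mean residual of the 5 genes over both sections, a residual being the departure from the count that a spot's total predicts. Each is written 5′ to 3′, with A and T in capitals and g and c in lower case.
High spot 1: AAATAccTATAAgcAT
High spot 2: AAcTcAAgTTAATTgc
High spot 3: AcAATccATTTAAAcc
High spot 4: AgATAcTcAAgATcgA
High spot 5: ATATAAATgTAgcTgc
The following 5 had the lowest mean residual.
Low spot 1: AgTcgAcggTcTcAAg
Low spot 2: gATAAcTcgcAcTgTg
Low spot 3: ggAgAAgTcATTggcA
Low spot 4: AgggTcgATgcgAAcT
Low spot 5: AgAgcgTAcAAgcTcg
The high spot 1 barcode, with 12 A or T bases, carried 24 UMIs of the 5 genes among 9267 in control and 11 among 10455 in rIL7. High spots 2, 3 and 5 have 11 A or T bases and high spot 4 has 10, and they carried 11 to 19 UMIs of the 5 genes in control and 10 to 16 in rIL7. The low spots have 7 or 8 A or T bases and carried 0 or 1 UMI of the 5 genes in each section, at totals of 9672 to 32416 UMIs. Over the 100 shared barcodes with the highest mean residual the A+T count averaged 10.75 (range 9 to 12), against 6.51 (range 4 to 9) over the 100 with the lowest. These spots were picked by the members' own values, so the sets describe the pattern and support nothing.

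Across all spots, the level of each gene was lower up to 8 A or T bases in the barcode than above, and rose more steeply from there. Levels are UMIs of the gene per 1000000 UMIs of the same spots (CPM), and are not divided by gene length. *Dynlt1a* stood at 0.857 CPM (0.104 to 3.09) in control spots with 4 or 5 A or T bases, at 4.26 (2.602 to 6.58) with 8, at 19.8 (15.9 to 24.4) with 9, at 42.2 (35.0 to 50.4) with 10 and at 67.4 (57.1 to 79.0) with 11 or 12. In rIL7 the same classes held 0.377, 2.597, 10.7, 25.5 and 34.5 CPM. The interval for 9 bases lay above that for 8 bases in both sections.

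*Ankmy1* followed the same course at about the same steepness. Its control levels were 2.14 CPM with 4 or 5 A or T bases, 10.0 with 8, 46.6 with 9, 89.6 with 10 and 112.8 with 11 or 12. Its rIL7 levels were 2.26, 7.39, 21.5, 44.5 and 56.5 CPM. *Leng9*, *Pam* and *Khsrp* kept a base level in barcodes poor in A and T and climbed above it. *Leng9* went from 13.3 CPM with 4 or 5 bases to 99.1 with 11 or 12 in control, and from 7.53 to 60.2 in rIL7. *Pam* went from 71.1 to 360.7 CPM in control and from 76.1 to 251.7 in rIL7. *Khsrp* went from 40.7 to 197.8 CPM and from 44.4 to 142.9 CPM. *Dynlt1f*, a copy of *Dynlt1a* on the same chromosome, showed no such course. It stood at 14.3 to 24.4 CPM over the classes of the control and 17.4 to 20.2 CPM over those of the rIL7 section.

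**Figure D1:**
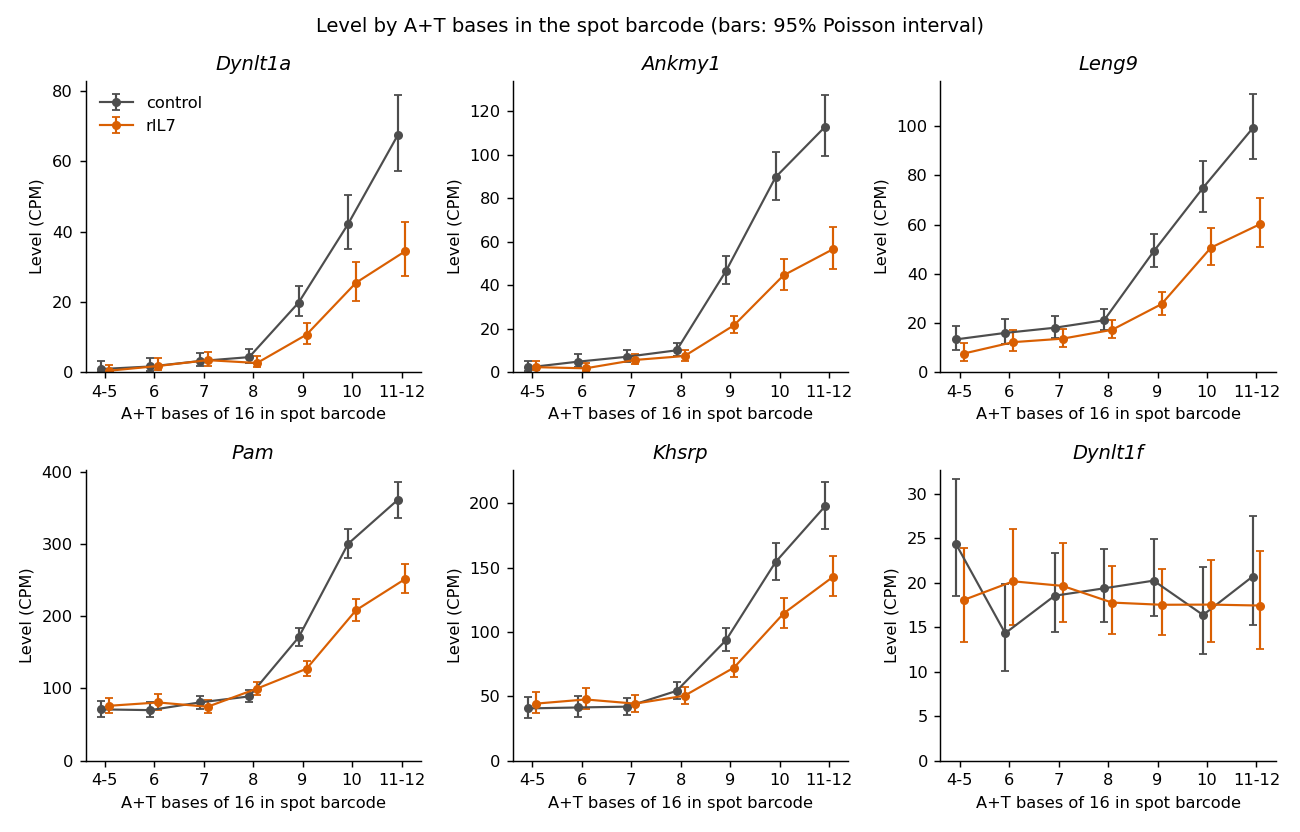
Level in CPM (y axis) of the 5 genes and of *Dynlt1f* against the number of A or T bases among the 16 bases of the spot barcode (x axis), with points for the summed UMIs of each class, grey for control and orange for rIL7, and bars for the 95% Poisson interval. The 5 genes were lower up to 8 bases than above and rose more steeply from there. *Dynlt1a* reached 67.4 CPM in control and 34.5 CPM in rIL7, while *Dynlt1f* stayed within 14.3 to 24.4 CPM.

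The ratio of A+T-rich over A+T-poor spots summarised the course. *Dynlt1a* held 274 UMIs in A+T-rich and 18 in A+T-poor spots of the control section, a ratio of 25.7 (15.95 to 44.0), and 170 and 20 UMIs in rIL7, a ratio of 14.1 (8.84 to 23.6). *Ankmy1* had ratios of 19.7 (14.4 to 27.4) and 14.0 (9.82 to 20.7). For these 2 genes, 61.02% to 68.5% of all UMIs came from the A+T-rich spots. *Leng9* had ratios of 5.30 (4.38 to 6.46) in control and 4.75 (3.81 to 5.95) in rIL7, *Pam* of 4.36 (3.98 to 4.78) and 2.94 (2.69 to 3.22), and *Khsrp* of 4.18 (3.70 to 4.74) and 2.78 (2.47 to 3.14). When each section was cut into 4 quadrants, the lowest A+T-rich level of every one of the 5 genes was above its highest A+T-poor level, in both sections, which 1.33% of the 10721 genes averaging 5 CPM or more showed. For *Khsrp*, whose ratio was the lowest, these were 153.6 against 45.7 CPM in control and 112.6 against 51.7 CPM in rIL7. The A+T split was drawn after the values of these genes had been seen.

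Few other genes behaved in this way. The share of genes that reached a 2-fold higher level in A+T-rich spots was 0.793% for the control and 0.336% for the rIL7 section among these 10721, and 0.27% reached it in both, all 5 genes being among these 29. At a threshold of 1.5-fold the share was 0.877% (94 genes) upward and 0.028% (3 genes) downward. The ratios of *Dynlt1a*, *Ankmy1*, *Leng9*, *Pam* and *Khsrp* ranked 4, 5, 10, 12 and 13 in control and 7, 8, 11, 16 and 17 in rIL7, and the median over all genes was 0.994 in both. *Dynlt1f* ranked 6582 and 9070. *Dynlt1b* (22 and 24 UMIs) and *Dynlt1c* (6 and 2 UMIs), the other copies, were too thinly counted to place. The sequences of the copies were not compared here, so how reads were divided between *Dynlt1a* and them is uncertain.

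Counts of A and of T each went with higher levels of every member. At every barcode position, A or T against G or C went with a higher summed level of the 5 genes. The positions were not examined gene by gene. Across spots, the Pearson correlation between the residual of a gene and the A+T count was 0.359 (*Leng9*) to 0.503 (*Pam*) in control and 0.305 (*Dynlt1a*) to 0.424 (*Pam*) in rIL7. Taken base by base, r was 0.151 to 0.301 for the number of A bases and for the number of T bases, and -0.159 to -0.309 for the numbers of G and of C, over the 5 genes and both sections. Split at each of the 16 barcode positions in turn, the summed level of the 5 genes was 1.21 to 1.49 times as high in control spots with A or T there as in those with G or C, and 1.17 to 1.39 times in rIL7 spots. Every position gave a ratio above 1 in both sections. Spots share a library, so these correlations describe 2219 and 1950 spots of 1 library each.

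The spot-to-spot pattern of the control mouse was found again at the same barcodes in the rIL7 mouse. Over the 1701 shared barcodes, r between a gene's residual in one section and in the other was 0.121 for *Dynlt1a*, 0.248 for *Ankmy1*, 0.143 for *Leng9*, 0.347 for *Pam* and 0.247 for *Khsrp*. An r of at least 0.1 was reached by 0.345% of the 10721 genes, all 5 among them, and the 5 ranked 25, 4, 18, 2 and 5. The 99th percentile over all genes was 0.070. When residuals were centred among spots with the same A+T count, r was -0.042 for *Dynlt1a*, 0.034 for *Ankmy1*, -0.00042 for *Leng9*, 0.076 for *Pam* and 0.066 for *Khsrp*, against a 99th percentile of 0.063 over all genes. Depth at the shared barcodes correlated with r of 0.06 between the sections.

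The repeat is also described in levels. The shared barcodes were ordered by the residuals of the other 4 genes in control and cut into 5 groups of 340 or 341, and the level of the gene left out was then read in rIL7. *Dynlt1a* rose from 3.87 CPM in the bottom group to 26.2 in the top group (ratio 6.78, interval 4.07 to 12.01), *Ankmy1* from 6.81 to 47.1 (6.92, 4.71 to 10.5) and *Leng9* from 14.1 to 52.1 (3.69, 2.78 to 4.96). *Pam* rose from 88.3 to 222.0 CPM (2.52, 2.24 to 2.83) and *Khsrp* from 44.7 to 120.2 (2.69, 2.28 to 3.17). Ordering in rIL7 and reading in control gave ratios of 12.04, 10.3, 3.61, 3.24 and 2.67. In the tumor of the other mouse, each gene was 2.52 to 12.04 times as high in the top as in the bottom group. All 5 genes were chosen by their values in both sections, so these ratios describe the pattern and support nothing. The ordering was not made within A+T count.

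**Figure D2:**
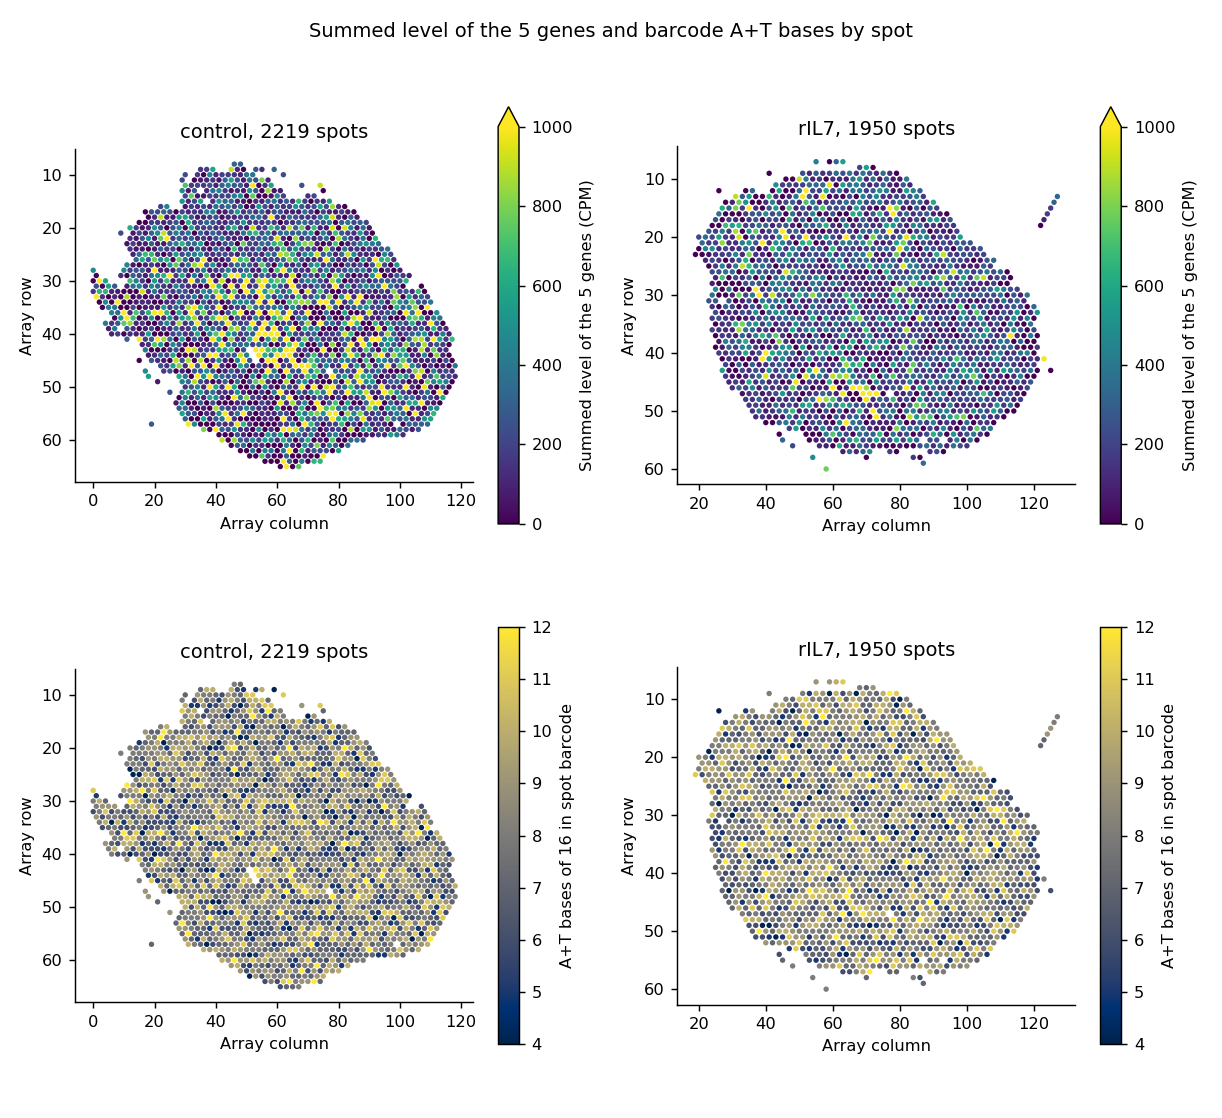
Array row against array column for the kept spots of each section, coloured by the summed level of the 5 genes in CPM (top, values over 1000 shown at the top of the scale) or by the number of A or T bases in the spot barcode (bottom). High spots were scattered singly among low ones in both sections, more densely in the middle of the control tumor, and the A+T counts were scattered over the whole array.

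Clustering over adjacent spots differed among the 5 genes. Moran's I of the residuals over the 6 adjacent spots, which is near 0 for a pattern without clustering and near 1 for smooth areas, was 0.018 in control and 0.015 in rIL7 for *Dynlt1a*, and 0.002 and 0.013 for *Khsrp*. *Ankmy1* had 0.052 and 0.049, *Leng9* 0.069 and 0.051, and *Pam* 0.068 and 0.038. Over all genes at 20 CPM or more in a section, the median was 0.012 and 0.014, the 90th percentile 0.059 and 0.078, and the highest value 0.746 and 0.743. The share of genes with a lower I than the member was thus 26.4% to 91.8% in control and 47.3% to 84.4% in rIL7. Barcode A+T count itself had an I of 0.009 and 0.021. Centred within A+T count, the control values of *Ankmy1*, *Leng9* and *Pam* stayed at 0.063, 0.069 and 0.084.

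**Figure D3:**
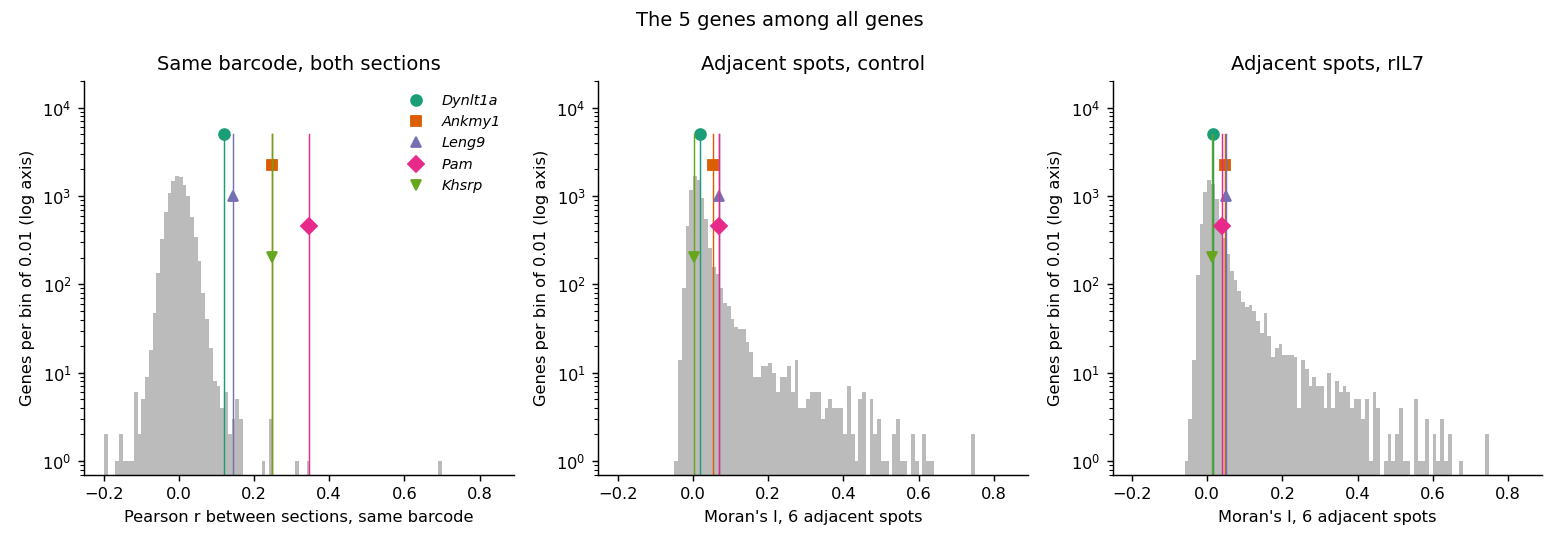
Number of genes (y axis, log scale) by Pearson r between the sections at the same barcode (left) and by Moran's I over adjacent spots in control (middle) and rIL7 section (right), with the 5 genes as coloured lines and symbols whose heights carry no value. The 5 genes lay at 0.121 to 0.347 on the left, beyond nearly all genes, and between 0.002 and 0.069 in the other panels, where *Leng9* and *Pam* in control were above the 90th percentile of 0.059.

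Patches drawn from the data broke into many pieces. The UMIs were divided at random into 2 parts, the 10% of spots with the highest level over a spot and its neighbours were taken from one part, and levels were read from the other. In control these 222 spots fell into 37 to 58 separate pieces, and the level inside over outside was 1.94 (1.22 to 2.97) for *Dynlt1a*, 2.70 (2.08 to 3.46) for *Ankmy1*, 2.17 (1.65 to 2.81) for *Leng9*, 1.79 (1.55 to 2.05) for *Pam* and 1.34 (1.09 to 1.64) for *Khsrp*. In rIL7 the 195 spots fell into 36 to 52 pieces, with ratios of 1.23 (0.619 to 2.25), 2.36 (1.66 to 3.28), 1.22 (0.830 to 1.74), 1.62 (1.40 to 1.86) and 1.13 (0.889 to 1.42). The intervals of *Dynlt1a*, *Leng9* and *Khsrp* in rIL7 reached below 1. Taking the spot's own level without its neighbours gave larger ratios for every gene, at 2.94, 3.94, 3.002, 2.66 and 1.94 in control and 1.80, 2.89, 2.23, 1.81 and 1.41 in rIL7. Of the spots found this way, 43.1% to 65.3% had A+T-rich barcodes, against 17.4% to 20.2% of the others.

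A broader gradient was present beside the barcode pattern, and it held within both barcode classes. In control the summed level of the 5 genes rose from 246.3 CPM (231.9 to 261.2) within 2 grid steps of the outline to 511.9 CPM (483.7 to 541.3) at 15 steps or more. In A+T-rich spots it rose from 525.7 to 1136 CPM and in A+T-poor spots from 113.8 to 196.5 CPM. Depth moved the opposite way, from a median of 10901 to 7827 UMIs, and the A+T-rich share of spots was 24.2% at the outline and 25.2% in the deepest ring. The part of depth in the gradient was not tested.

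The rIL7 section had a different course. The sum rose from 188.8 CPM (175.5 to 202.9) at the outline to 286.6 (273.0 to 300.6) at 6 to 9 steps and stood at 228.4 (214.6 to 242.9) at 15 steps or more, where depth was highest, with a median of 16220 UMIs. In these 3 rings it was 343.0, 556.8 and 455.7 CPM in A+T-rich spots and 114.8, 139.5 and 133.9 CPM in A+T-poor spots. The A+T-rich share of their spots was 23.3%, 24.2% and 19.0%. *Ankmy1* stood at 66.5 CPM in the deepest control ring and 15.0 CPM in the deepest rIL7 ring, against 23.7 and 12.7 CPM at the outlines. *Dynlt1a* stood at 32.0 and 5.83 CPM in the deepest rings, against 10.7 and 8.66 CPM at the outlines. The ring levels of *Ankmy1* and *Dynlt1a* were not split by barcode class, and the part of the A+T-rich share in them was not tested. Which of the treatment, the mouse, the section and the depth went with the difference between the sections cannot be told apart.

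The outer rim was low in 4 of the genes. The level within 2 steps of the outline over that of the interior was 0.517 (0.416 to 0.638) in control and 0.484 (0.358 to 0.641) in rIL7 for *Leng9*, 0.663 (0.601 to 0.730) and 0.652 (0.581 to 0.730) for *Pam*, and 0.624 (0.504 to 0.766) and 0.658 (0.480 to 0.884) for *Ankmy1*. For *Dynlt1a* it was 0.562 (0.407 to 0.762) in control and 0.837 (0.565 to 1.204) in rIL7, an interval that reached above 1. *Khsrp* was level, at 0.956 (0.8505 to 1.07) and 0.955 (0.835 to 1.09). Mean barcode A+T count was 8.07 at the edge and 8.02 in the interior of the control, and 7.96 and 8.08 in rIL7. Within A+T-poor spots alone the ratio of *Leng9* was 0.604 and 0.459 and that of *Pam* 0.748 and 0.732, while those of *Dynlt1a* (0.819 and 0.811) and *Ankmy1* (0.796 and 0.792) had intervals that included 1. In a spot, fewer cells that use a gene and less of its RNA per cell cannot be told apart.

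The level of the 5 genes in the whole sections was lower in the rIL7 tumor. *Dynlt1a* had 400 UMIs in control and 259 in rIL7, or 17.4 CPM (15.8 to 19.2) and 10.1 CPM (8.88 to 11.4), a ratio of rIL7 over control of 0.578 (0.492 to 0.677). *Ankmy1* had 811 and 472 UMIs, 35.3 and 18.3 CPM, and a ratio of 0.519 (0.462 to 0.582). *Leng9* had 897 and 660 UMIs, 39.1 and 25.7 CPM, and a ratio of 0.656 (0.593 to 0.727). *Pam* had 3508 and 3228 UMIs, 152.8 and 125.5 CPM, and a ratio of 0.821 (0.782 to 0.861). *Khsrp* had 1924 and 1806 UMIs, 83.8 and 70.2 CPM, and a ratio of 0.837 (0.785 to 0.893).

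*Dynlt1a*, *Ankmy1* and *Leng9* were thus lower by 1.5-fold or more, a drop shared by 2.2% of the 10721 genes that averaged 5 CPM or more and by 1.27% of the 7613 that averaged 20 CPM or more. *Ankmy1* was the closest to a 2-fold drop and passed it with spots weighted equally (0.497) and at the shared barcodes (0.492). None of the 5 was lower by 2-fold over all spots, as 0.513% and 0.197% of these genes were, or higher by 2-fold, as 1.46% and 0.828% were. *Dynlt1f* had 439 and 470 UMIs and a ratio of 0.955 (0.837 to 1.09). Quadrant levels did not overlap between the sections for *Dynlt1a* (12.4 to 25.7 CPM in control, 8.85 to 11.3 in rIL7), *Ankmy1* (28.5 to 42.2 and 14.6 to 20.3), *Leng9* (31.0 to 50.4 and 21.7 to 30.6, the closest approach), *Pam* (138.1 to 164.5 and 113.3 to 132.8) or *Khsrp* (75.5 to 94.97 and 66.7 to 72.8). Such a gap, with every rIL7 quadrant below every control quadrant, was found for 11.0% of the 10721 genes. Quadrants belong to 1 tumor each and are not replicates.

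The size of the section difference changed with the barcode class. In A+T-rich spots the ratio of rIL7 over control was 0.547 (0.449 to 0.665) for *Dynlt1a*, 0.495 (0.427 to 0.573) for *Ankmy1*, 0.638 (0.550 to 0.738) for *Leng9*, 0.692 (0.643 to 0.744) for *Pam* and 0.727 (0.658 to 0.802) for *Khsrp*. In A+T-poor spots it was 0.998 (0.502 to 2.00), 0.694 (0.430 to 1.11), 0.712 (0.550 to 0.921), 1.02 (0.921 to 1.14) and 1.09 (0.949 to 1.26). For *Pam* and *Khsrp* the intervals of the 2 classes did not overlap, and the A+T-poor intervals included 1. The *Leng9* interval lay below 1 in both classes. The A+T-poor values of *Dynlt1a* rest on 18 and 20 UMIs, and its interval included both 1 and the ratio over all spots. Those of *Ankmy1* rest on 44 and 34 UMIs, and over the A+T-poor barcodes kept in both sections (38 and 29 UMIs) its ratio was 0.594 (0.353 to 0.989), below 1. *Actb*, the gene for beta-actin, turned in the same manner, at 0.915 in A+T-rich and 1.30 in A+T-poor spots. What sets the A+T ratio of each section was not tested.

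**Figure D4:**
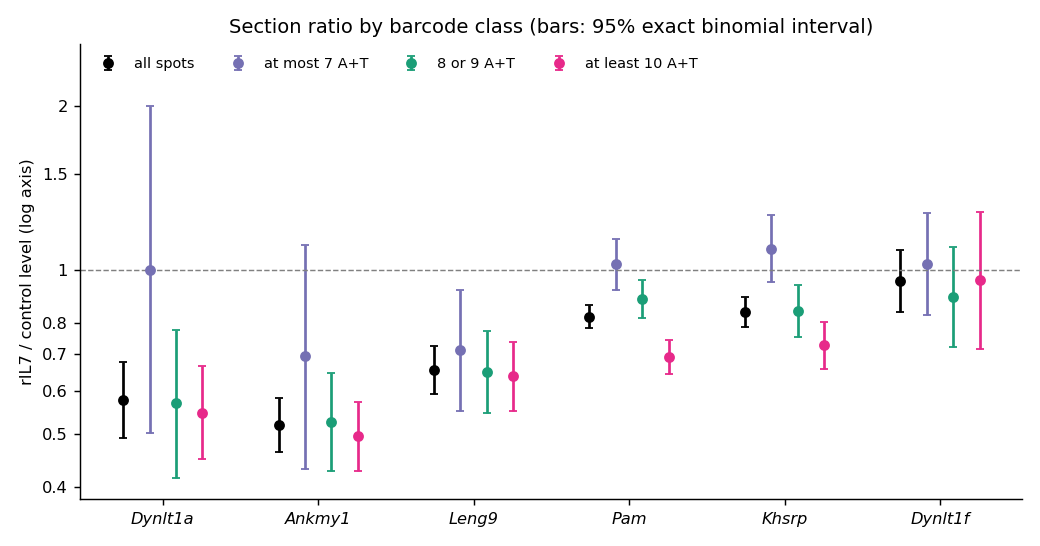
Ratio of the rIL7 over the control level (y axis, log scale) of the 5 genes and of *Dynlt1f* in all spots and in 3 classes of spot barcode, with bars for the 95% exact binomial interval. *Pam* and *Khsrp* were at 0.692 and 0.727 in barcodes with at least 10 A or T bases and at 1.02 and 1.09 in those with at most 7, and *Dynlt1f* was near 1 in every class.

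The 5 genes were correlated with each other at the same spot and hardly at all between adjacent spots. Over the 10 pairs, r of the residuals had a median of 0.299 (0.228 to 0.418) in control and 0.214 (0.154 to 0.291) in rIL7. The highest control value was that of *Ankmy1* and *Pam*, and the lowest that of *Dynlt1a* and *Leng9*. Against all genes at 20 CPM or more, the median r of a member was 0.001 to 0.004 in control, and the 99th percentile 0.10 to 0.14. Centred within A+T count, the median pair r was 0.086 (0.044 to 0.178) and 0.081 (0.033 to 0.129). Between one gene at a spot and the other at the adjacent spots it was 0.024 and 0.028.

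**Figure D5:**
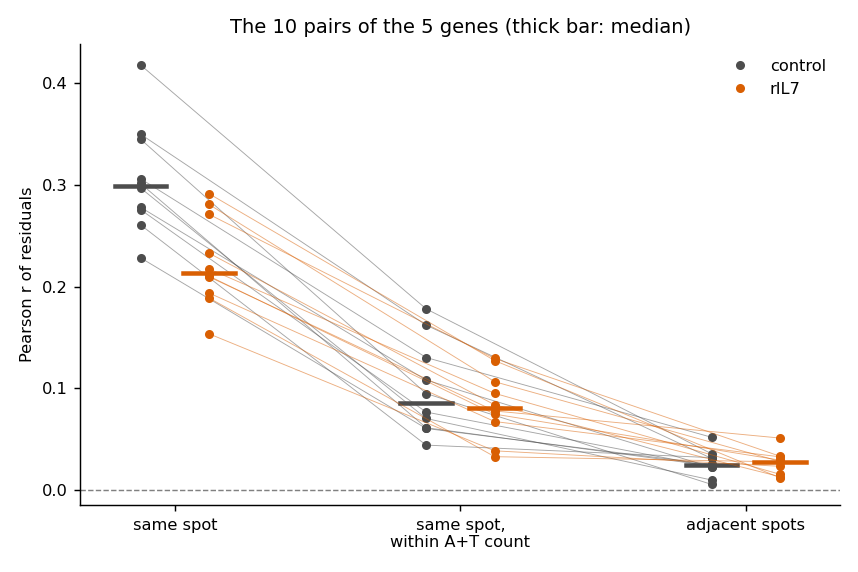
Pearson r (y axis) of the 10 pairs of the 5 genes at the same spot, at the same spot after centring within barcode A+T count, and between adjacent spots, for the control (grey) and rIL7 section (orange), with thin lines joining each pair and thick bars for medians. The medians went from 0.299 and 0.214 to 0.086 and 0.081 and then to 0.024 and 0.028.

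The genes most like the members across spots were largely the same for all 5. By the mean r over both sections among 7340 or 7341 genes, *Actb* came first for all 5, at 0.459 and 0.290 with *Dynlt1a*, 0.504 and 0.344 with *Ankmy1*, 0.410 and 0.241 with *Leng9*, 0.528 and 0.347 with *Pam* and 0.510 and 0.364 with *Khsrp*. *Actb* also had the highest same-barcode r of all genes, 0.6997, with A+T ratios of 2.65 and 1.86 (ranks 40 and 48) at levels of 4141 and 4441 CPM. Centred within A+T count, its same-barcode r was 0.275, against a 99th percentile of 0.063 over all genes. *Hnrnpl*, which encodes a splicing regulator, was among the 3 most like genes of every member, with A+T ratios of 2.65 and 1.77. *Pam* itself was among those of *Ankmy1*, *Leng9* and *Khsrp*, and *Prrc2c* among those of *Dynlt1a* (r of 0.308 and 0.204). *Slc39a1*, a zinc importer gene, was among those of *Pam* (r of 0.407 and 0.278), with ratios of 2.58 and 1.85. For the members other than *Pam*, the least like genes were ribosomal protein genes (*Rpl39*, *Rps21*, *Rpl36*, *Rpl38*, *Rpl41*, *Rps26*), with mean r of -0.09 to -0.16, and least like *Pam* were *Tmsb10*, *Cd74* and *Ly6a* (-0.13 to -0.15).

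Genes related to the members by pathway, domain or chromosomal place were near the median of all genes in the A+T ratio. Of the 49 tested in 5 lists (cytoplasmic dynein, AU-rich RNA binding, peptide hormone processing, MYND domain and leukocyte receptor cluster), 0 had a 1.5-fold higher level in A+T-rich spots of both sections, as 0.877% of all genes had, a count near that background, and the median ratio was 1.003 and 0.983. *Dync1h1*, the dynein heavy chain gene, was at 1.05 and 0.98, and *Dynll1*, a light chain gene, at 0.97 and 0.94. *Elavl1* and *Zfp36*, which bind AU-rich RNA as *Khsrp* does, were at 1.01 and 0.95 and at 0.93 and 0.92. *Cpe*, a peptide-processing carboxypeptidase gene, was at 0.97 and 0.96. The list genes with the highest ratios were *Hnrnpa1* (1.48) in control and *Ankmy2* (1.35) in rIL7. In rIL7, 0 of the 49 were lower by 1.5-fold, near the background of 2.2%.

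Cell type transcripts followed the members weakly. Over 14 marker lists and the 5 genes, r with the summed list ranged from -0.143 (MHC class II with *Pam*) to 0.074 (neutrophil with *Ankmy1*) in control and from -0.141 (macrophage with *Pam*) to 0.097 (CT26 tumor with *Pam*) in rIL7. The r with macrophage and with MHC class II transcripts was below 0 for all 5 genes in control. Both CT26 tumor markers, *Rpl39l* and *Baiap2l1*, were detected, at 1293 CPM together in control and 1043 CPM in rIL7. In all, 7 of 7 tested T cell genes were higher by 1.5-fold or more in rIL7, against 3.26% of the 10721 genes. The list summed to 133.9 CPM in rIL7 against 39.9 CPM in control, and skeletal muscle transcripts to 6.96 against 63.9 CPM. In the control patches of *Dynlt1a* and *Ankmy1*, the level inside over outside was 2.87 and 3.17 for keratinocyte transcripts, 1.78 and 2.79 for skeletal muscle and 1.70 and 1.86 for neutrophil transcripts. In rIL7 patches of the same genes it was 1.13 and 1.11, 1.38 and 1.07, and 0.879 and 0.796 (0.695 to 0.909 for *Ankmy1*). Across all control spots, r of *Dynlt1a* and *Ankmy1* was -0.0015 and 0.011 with keratinocyte, 0.024 and 0.025 with skeletal muscle and 0.004 and 0.074 with neutrophil transcripts. In control patches of *Leng9*, *Pam* and *Khsrp*, keratinocyte transcripts were at 1.44, 0.706 and 0.845 and neutrophil transcripts at 1.61, 1.01 and 1.17. Skeletal muscle transcripts were at 1.49 in control patches of *Leng9* and 1.03 in those of *Khsrp*. The control patches of *Pam* had 2.14 for skeletal muscle and 0.511 for interferon response transcripts. Macrophage transcripts were at 0.697 to 0.840 in the control patches of the 5 genes, and at 0.813 (*Pam*) to 1.07 (*Khsrp*) in rIL7 patches. The rIL7 patches of *Khsrp* also had 1.22 (1.18 to 1.26) for MHC class II and 1.47 (1.26 to 1.71) for T cell transcripts. *Khsrp* itself was at 1.13 (0.889 to 1.42) in them, and its rIL7 r with these lists was 0.0003 and 0.015. In rIL7 patches of the other members, MHC class II was at 0.727 (*Pam*) to 1.03 (*Dynlt1a*) and T cell transcripts at 0.891 (*Ankmy1*) to 1.04 (*Leng9*). In control patches MHC class II was at 0.681 (*Ankmy1*) to 0.805 (*Khsrp*). The part of cell type transcripts in the section difference was not tested.

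Genes beside the members on the chromosome mostly lacked their spot pattern. In mm10 (GRCm38), *Dynlt1a* lies at chr17:6306344-6317520 and *Khsrp* on the same chromosome at chr17:57021049-57031507. *Ankmy1* lies at chr1:92859840-92902987, *Pam* at chr1:97821091-98095853 and *Leng9* at chr7:4148183-4149872. *Ankmy1* and *Pam*, 1 to 5 Mb apart, had r of 0.418 in control and 0.281 in rIL7. *Dynlt1a* and *Khsrp*, over 20 Mb apart, had 0.276 and 0.217, and *Leng9* and *Pam*, on different chromosomes, 0.350 and 0.271. The median r with the 10 detected genes on each side was -0.01 to 0.02 in control and -0.00 to 0.01 in rIL7 over the 5 genes, and the median with all other detected genes was at most 0.003 in size for each.

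A few neighbours stood apart. *Gpc1*, a cell-surface proteoglycan gene whose span overlaps that of *Ankmy1* by 372 bases, had an r with *Ankmy1* of 0.347 in control and 0.210 in rIL7, and A+T ratios of 1.77 and 1.35. *Tmem181a*, whose span overlaps that of *Dynlt1a* by 1971 bases, had r of 0.108 and 0.045 and A+T ratios of 1.53 and 1.35. How reads from the shared bases were divided is uncertain. *Igf2r*, whose span does not overlap that of *Dynlt1a*, had A+T ratios of 2.40 and 1.62. Its control r of 0.136 was the highest among the 10 detected genes on each side of *Dynlt1a*. In rIL7 the highest r among these genes was 0.051. *Leng8*, next to *Leng9*, had r of 0.124 and 0.081 and A+T ratios of 1.29 and 1.13. The nearest genes of *Pam* (*Gin1*, *Ppip5k2*, *Gm7967* and *Pign*) had r of -0.00 to 0.04 in control, and those of *Khsrp* (*Gtf2f1*, *Alkbh7*, *Dennd1c* and *Gm11110*) -0.00 to 0.06. For the rest, *Tulp4* and *Ezr* beside *Dynlt1a*, *Otos*, *Dusp28* and *Rnpepl1* beside *Ankmy1*, and *Lair1*, *Cdc42ep5* and *Ncr1* beside *Leng9* had r of -0.04 to 0.07 in control.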

How the data were processed

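The deposited values are UMI counts of each gene at each spot, not normalized, which the authors made with Space Ranger 1.1.0 against mm10 per the labels; strand handling and the treatment of reads shared between copies or overlapping genes are not given in the sources used here. Spots over tissue, as flagged by the authors, were kept with under 10% mitochondrial UMIs and over 200 genes, the limits of the study's methods, which removed 2 control and 1 rIL7 spot. Doublets do not apply to spots, which can each hold several cells. Counts were summed over spots and divided by the summed totals (CPM). Poisson intervals were used for levels and Clopper-Pearson intervals for ratios; both are exact and cover counting error only, and a difference between single libraries is not a difference between treatments.

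Pearson residuals (negative binomial, theta 100) of each count against the spot total entered Moran's I and the correlations. A+T counts were read from the 16-base deposited barcodes. Gene positions and copies came from the RefSeq table of GRCm38.p6, which held 10541 of the 10721 genes averaging 5 CPM or more; no protein or promoter sequence was used here. Python 3.11.15, numpy 2.4.6, scipy 1.17.1 and pandas 2.3.3 were used, with edgeR 4.0.16 and DESeq2 1.42.0 in R 4.3.3 for scaling factors alone. The scripts were checked on simulated spots. Genes named besides the 5 members are the copies of *Dynlt1a*, the 2 nearest detected genes on each side and genes of the lists. The 3 genes most and least like each member are also named. *Actb* was followed because it came first among the like genes. *Igf2r* is named as the neighbour with the highest r with *Dynlt1a* in control. Members, lists and classes were chosen with earlier results of these data known. Marker lists covered T cell, macrophage, MHC class II, neutrophil, fibroblast, CT26 tumor, endothelial, hypoxia, proliferation, B and plasma cell, keratinocyte, skeletal muscle, interferon response and red blood cell genes.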

Additional observations from a re-analysis of the deposited data

How the results depend on the processing

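Of 340 values under other settings, 260 stayed within the interval or quadrant spread of the value reported. Beyond it, 75 moved without a change of sign or of side of 1, and 5 moved with one. Some values within the spread also crossed 0 or 1. Examples are I of *Dynlt1a* (rIL7) within A+T count at -0.0011 and the patch ratio of *Leng9* (rIL7) in interior spots at 0.901. Scalings by TMM, median-of-ratios or trimmed totals shifted the median of all genes by at most 0.01 on the log2 scale and left the section ratios of the 5 genes within their intervals. The settings by barcode, the patch from a spot's own level and the alternatives to the A+T and same-barcode values were chosen after seeing the data. The section ratio was 0.998 (*Dynlt1a*), 0.694 (*Ankmy1*), 1.02 (*Pam*) and 1.09 (*Khsrp*) in A+T-poor spots, 0.692 (*Pam*) and 0.727 (*Khsrp*) in A+T-rich spots, and 0.778 (*Pam*) at shared barcodes. The counts of genes at least 2-fold higher and lower in the rIL7 section were 157 and 55 at a mean of 5 CPM and 2381 and 2016 without a filter. With at least 9 against at most 8 A or T bases, the A+T ratio of *Dynlt1a*, *Ankmy1*, *Leng9*, *Pam* and *Khsrp* was 13.3, 11.0, 3.84, 3.18 and 2.97 in the control, and that of the last 4 was 7.48, 3.11, 2.12 and 2.14 in the rIL7 section. Thinning to 5900 UMIs, which left out 217 and 81 shallower spots, gave 8.39 for *Dynlt1a* (rIL7), median pair r of 0.205 and 0.116, and Moran's I of -0.010 for *Dynlt1a* (control) and 0.022 for *Pam* (rIL7). At 2 grid steps I was 0.012 for *Khsrp* (control) and 0.0090 for *Pam* (rIL7). Smoothed Spearman values were 0.336 and 0.264 for the pairs and 0.013 for chromosome neighbours (rIL7). Within A+T count the median pair r was 0.086 and 0.081, and same-barcode r was -0.042, 0.034, -0.00042, 0.076 and 0.066. As Spearman of CPM, same-barcode r was 0.324 (*Ankmy1*), 0.303 (*Pam*) and 0.196 (*Khsrp*), and on log2(CPM + 100) it was 0.285, 0.313 and 0.210. Own-spot patches gave 3.94, 3.002, 2.66 and 1.94 for *Ankmy1*, *Leng9*, *Pam* and *Khsrp* (control) and 2.23 for *Leng9* (rIL7), another random split 1.97 for *Leng9* (rIL7), and the top 20% of spots 1.38 for *Pam* (rIL7). The rim ratio was 0.737 for *Pam* (control) and 0.528 for *Dynlt1a* (rIL7) at 1 step, and 0.655 for *Leng9* (rIL7) at 4 steps. The cause of each change was not tested. No paired analysis was possible because each group holds 1 section. Depth limits the A+T-poor values most, with 18 and 20 UMIs of *Dynlt1a*.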

Other observations

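Other genes followed the base composition of the spot barcodes as the 5 members did. *Nphs1*, the gene of nephrin, a protein of the kidney filtration slit, had a level of 8.28 CPM (control) and 2.84 CPM (rIL7), and was 36.3 and 30.4 times as high in A+T-rich as in A+T-poor spots. *Slc2a12*, a glucose transporter gene, was 34.4 and 26.5 times as high, the unnamed gene *Gm17300* 33.5 and 16.3 times, and *Tmod1*, a tropomodulin gene, 8.88 and 14.6 times. Levels in control and rIL7 were 6.71 and 4.08 CPM for *Slc2a12*, 10.3 and 3.89 for *Gm17300* and 10.6 and 6.18 for *Tmod1*. The ratios of these 4 genes rest on few UMIs in A+T-poor spots and are given without intervals. Among better counted genes, *Birc6*, an inhibitor of apoptosis gene, was at 3.49 and 2.39, *Cdkn1b*, the gene of the cell cycle inhibitor p27, at 3.57 and 2.31, *Upf1*, a helicase gene of nonsense-mediated decay, at 2.95 and 1.99, and *Pdcd4*, a translation inhibitor gene, at 2.31 and 1.89. These genes were picked after their values had been seen.

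Whole gene families moved little. The 81 cytosolic ribosomal protein genes had a median ratio of 0.970 in control and 0.991 in rIL7 spots. The 8 genes of the mitochondrial genome had 0.946 and 0.936, and the median over all genes was 0.994 in both sections. Few genes were at least 1.5-fold lower in A+T-rich spots of both tumors, and these 3 were *Sirt1*, *Zfp101* and *Ighg3*, the last with 0.0436 CPM in the control section.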
